A study of Mus musculus with 6 samples.

Results

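The 7 enzymes of the pentose phosphate pathway were followed by RNA-seq in cultured group 2 innate lymphoid cells (ILC2) from the brains of young and old mice. They were chosen by name, as G6pdx, Pgls, Pgd, Rpia, Rpe, Tkt and Taldo1, and each of the 7 has a row in the deposited table of 24421 gene rows. ILC2 live in tissues, carry no rearranged antigen receptor and act early in allergic and antiparasite responses. The cells came from C57BL/6 mice, an inbred laboratory strain, with 3 libraries from young mice of 2 to 3 months and 3 from old mice of 20 to 22 months. In both groups the cells had been sorted from brain by their surface markers and then kept for 2 weeks in medium with 20% fetal calf serum, stem cell factor and the interleukins IL-33, IL-2 and IL-7. The values are therefore those of cytokine-expanded cells, not of cells as they lie in the brain. Whether each library stands for its own mouse or culture is not stated, so every p-value refers to library-to-library spread only, which may be technical.

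The pentose phosphate pathway branches from glycolysis at glucose 6-phosphate. Its oxidative branch (G6pdx, Pgls, Pgd) turns glucose 6-phosphate into ribulose 5-phosphate, releases carbon dioxide and reduces NADP to NADPH, which cells spend on lipid synthesis, on recycling glutathione and thioredoxin and, in some leukocytes, on making superoxide. Its non-oxidative branch (Rpia, Rpe, Tkt, Taldo1) interconverts sugar phosphates in both directions, linking ribose 5-phosphate, the sugar of nucleotides, with the glycolytic intermediates fructose 6-phosphate and glyceraldehyde 3-phosphate. Dividing lymphocytes draw on both branches.

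Of the 7 enzymes, 1 was called between the ages. Pgls, which encodes 6-phosphogluconolactonase, was higher in every old library than in any young library and rose 1.91-fold. The other 6, the entry enzyme G6pdx and the sugar exchange enzymes Tkt and Taldo1 among them, did not pass the test. The share of enzymes called stands beside 19.4% of 11805 tested genes called in either direction and 11.2% called higher and 8.14% called lower in old libraries (edgeR's quasi-likelihood test, Benjamini-Hochberg adjusted p under 0.05). Young and old libraries did not overlap for 3 of the 7 enzymes, beside 38.2% of all tested genes. The median log2 change was 0.11 over the 7 enzymes and -0.10 over all tested genes.

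**Figure D1:**
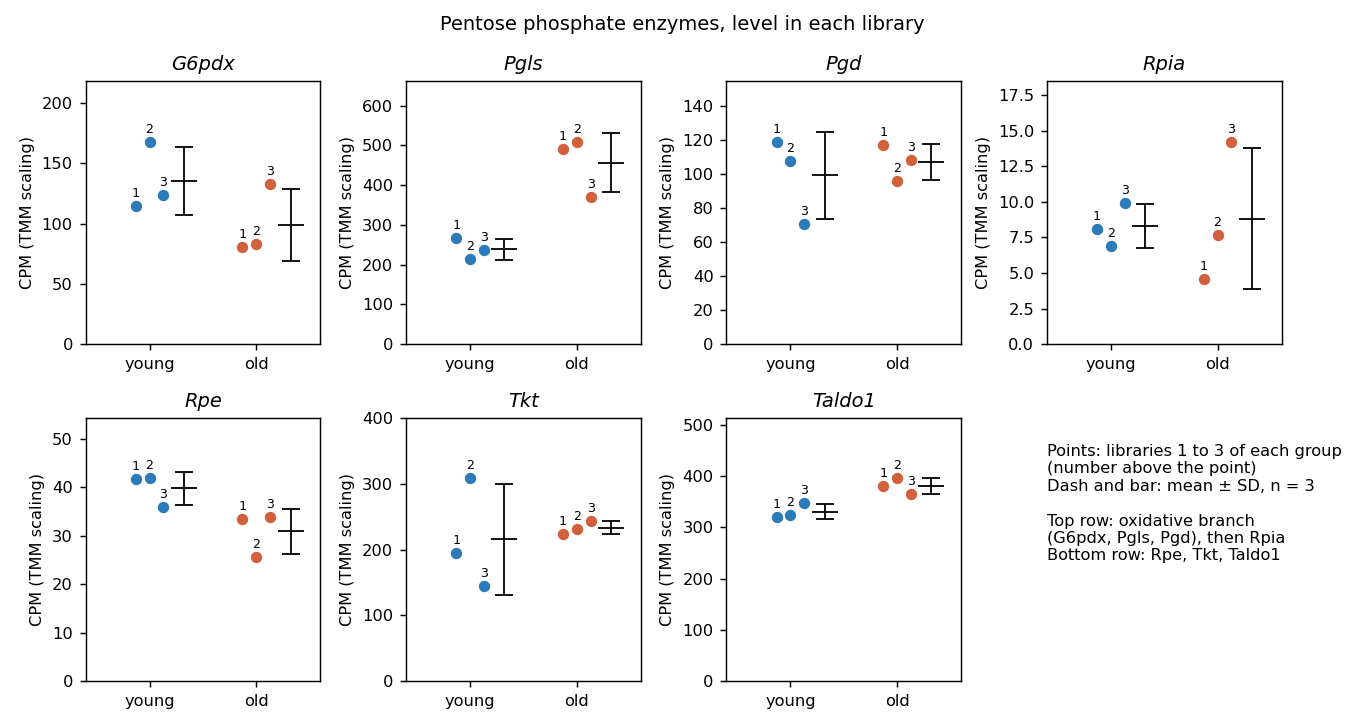
Level of each pentose phosphate enzyme in CPM (TMM scaling, vertical axes from 0) in the 3 young and 3 old libraries, with the mean and SD of each group. Pgls lies at 213 to 266 CPM in young and 371 to 509 CPM in old libraries, and the groups of G6pdx, Pgd, Rpia and Tkt overlap.

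Library totals ran from 16477157 to 20804291 counts. Levels are given in CPM, counts divided by library size and set to a common total, with library sizes scaled by TMM, a method that assumes most genes are unchanged. Its factors were 1.12 to 1.18 in young and 0.84 to 0.88 in old libraries, and the choice of scaling matters to this pathway. Over all genes, 1325 were called higher and 961 lower in old libraries with TMM, against 718 higher (6.08%) and 2380 lower (20.2%) when library totals were the only scaling, where the median log2 change of all tested genes was -0.52. The lower calls depended more on single libraries, with 399 lower and 915 higher without young library 1 and 480 lower and 1035 higher without young library 2. The summed ILC2 markers held 15071 to 17344 CPM of library totals in young and 11194 to 13271 CPM in old libraries, with all 14 detected. They did not move together. With TMM, Gata3, Rora, Il1rl1, Il2ra, Klrg1, Il5, Il13, Ptprc, Il17rb and Icos had lower means in old libraries. Il7r, Areg, Thy1 and Id2 had higher means. Klrg1 fell from 86.5 ± 12.5 to 1.45 ± 2.11 CPM and Il17rb from 12.1 ± 6.10 to 1.48 ± 2.34 CPM (SD, n = 3 each). Id2 rose from 3736.5 ± 607 to 6509 ± 206 CPM. Of other cell types, Cd3e, Ncr1, Csf1r and S100a8 were at 0 counts in the 6 libraries. The 6 dendritic cell markers (Clec9a and Siglech at 0) summed to 76.0 to 98.7 CPM in young and 270.1 to 297.1 CPM in old libraries. Batf3 alone made most of that sum, at 67.4 ± 13.4 and 317 ± 24.9 CPM with TMM (SD, n = 3 each), while Zbtb46 was at 0.83 and 0.85 CPM. The 9 microglia and macrophage markers (Csf1r, C1qa and Fcgr1 at 0) summed to 8.34 to 20.9 and 45.1 to 71.6 CPM. Tmem119 (0.67 and 51.1 CPM with TMM) and P2ry12 (2.49 and 15.5 CPM) were higher on average in old libraries, whereas Cx3cr1, Adgre1, Aif1 and C1qb had lower means there. Of the 5 B cell markers all but Cd79b were at 0, and their sum was 16.0 to 25.7 and 27.9 to 51.6 CPM. The part of these marker shifts in the values below was not tested. In bulk RNA, a change in the share of cells that express a gene and a change in RNA per cell cannot be told apart.

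The stretches before the start sites are shown because the promoters share a motif while the transcripts did not change together. All 7 enzymes have a RefSeq promoter window in GRCm38.p6, and Pgd has another one at a second start. Start sites here are those of RefSeq. The GENCODE gene starts of G6pdx, Pgls, Pgd, Rpia and Tkt lie further upstream. By GENCODE the stretches shown for G6pdx, Rpia and Tkt therefore fall inside the gene, and those shown for Pgls and Pgd lie before it. The window at the second Pgd start also falls inside the gene by GENCODE. In the 250 bases upstream, the GC box, GGGCGG or its reverse complement CCGCCC, occurs in all 7 genes (7 of 8 windows), where 32.7% of 32851 promoter windows of the same length hold it. Those 7 windows hold 54.4% to 64.4% G and C, above the median of 52.4% over all windows. They were not compared with windows of like G and C content. Each line gives 30 bases, 5′ to 3′ on the gene's strand, around the GC box nearest the start, with GC boxes in capitals:
Pgls (chr8:71592000-71592029, plus strand): gccggggactgcCCGCCCactacccacctc
G6pdx (chrX:74429013-74429042, minus strand): gggaaggccaaaGGGCGGggctggccaggg
Pgd (chr4:149166781-149166810, minus strand): ggccccgggggtGGGCGGgtccgtttgccc
Rpia (chr6:70792176-70792205, minus strand): ggtttccggaggagttgggggtgGGGCGGc
Rpe (chr1:66700801-66700830, plus strand): gagtgcgaggtgggaggGGGCGGagccagt
Tkt (chr14:30549101-30549130, plus strand): gcgccCCGCCCcacctCCGCCCCGCCCccc
Taldo1 (chr7:141392099-141392128, plus strand): ctccaagtacatGGGCGGggctcgtcgtca

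Tkt carries 3 GC boxes in those 30 bases, 2 of them sharing a base. The antioxidant response element core, TGACNNNGC or its reverse complement GCNNNGTCA, is the motif bound by NRF2 (Nfe2l2), a known activator of oxidative branch genes. Only the G6pdx window holds it, from 57 bases before the RefSeq start, and 10.2% of all windows do. That place is inside the gene as GENCODE draws it. It lies on the reverse strand and is in capitals here:
G6pdx (chrX:74428918-74428947, minus strand): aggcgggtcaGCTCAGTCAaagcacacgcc

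The hypoxia response element core, ACGTG or CACGT, occurs in 16.6% of all windows and in none of these 8, nor does the E-box CACGTG (6.0% of all windows), which contains that core. The CCAAT box, CCAAT or ATTGG, is in the windows of Pgd and Taldo1 and in 33.8% of all windows. By GENCODE the CCAAT boxes of Pgd fall inside the gene. Pgls, the enzyme whose transcript rose, has the window richest in G and C of the 8, at 64.4% beside a median of 52.4% over all windows, and its upstream stretch as far as the GENCODE gene start reads as follows, with its GC box in capitals:
Pgls (chr8:71591934-71592175, plus strand): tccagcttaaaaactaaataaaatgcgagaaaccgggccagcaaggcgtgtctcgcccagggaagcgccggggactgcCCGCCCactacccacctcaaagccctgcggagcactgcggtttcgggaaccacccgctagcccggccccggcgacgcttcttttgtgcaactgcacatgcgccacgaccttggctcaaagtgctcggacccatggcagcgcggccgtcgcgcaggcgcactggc
These matches describe letters in a window and no factor was measured at them.

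In the oxidative branch, G6pdx encodes the entry enzyme, the rate-limiting step of the pathway (chromosome X, 74409483 to 74429194, minus strand, GENCODE vM21 on GRCm38). It stood at 115, 168 and 124 CPM in young libraries 1 to 3 and at 80.6, 83.0 and 133 CPM in old libraries 1 to 3. Old libraries 1 and 2 lay below every young library, while old library 3 lay above young libraries 1 and 3. The log2 change was -0.46 ± 0.24 (SE, 95% interval -0.97 to 0.06) and did not pass (adjusted p = 0.218, edgeR). Leaving out 1 library moved it both ways, to -0.73 without old library 3 (adjusted p = 0.051, edgeR) and to -0.26 without young library 2 (adjusted p = 0.584). With library totals as the only scaling, G6pdx was called lower, at a log2 change of -0.87 (adjusted p = 0.0262), 1 of 3 enzymes called under that scaling (Pgls higher, G6pdx and Rpe lower) beside 26.2% of all tested genes in either direction and 20.2% called lower. Its level was then 134, 198 and 139 CPM of library totals in young and 70.3, 69.7 and 118 CPM in old libraries, without overlap.

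G6pdx has a retrocopy, G6pd2, a gene of 1 exon with 7, 1 and 2 counts in young and 1, 0 and 3 in old libraries, against 1217 to 4122 counts for G6pdx. Of the 75-base windows (the read length) of the longest G6pdx transcript, 4.2% occur in transcripts of G6pd2 or of the opposite-strand gene Ikbkg, whose own counts were 90 to 479.

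Pgls encodes the lactonase that hydrolyses the lactone made in the first step (chromosome 8, 71592176 to 71601092, plus strand). Its levels were 266, 213 and 238 CPM in young and 490.2, 509 and 371 CPM in old libraries. The lowest old library, number 3, was 1.37-fold below the highest old library and still above all young libraries. The mean rose from 239 ± 26.4 to 457 ± 74.9 CPM (SD, n = 3 each), a log2 change of 0.93 ± 0.16 (SE, 95% interval 0.58 to 1.29; adjusted p = 0.0022, edgeR). Pgls passed in each of 16 alternative analyses, with log2 changes from 0.51 with library totals (adjusted p = 0.0295) to 1.06 without old library 3 (adjusted p = 0.00167). Corrected for length and GC content of the transcripts, the log2 change was 0.94. Fam129c shares 20.6% of the Pgls exon length on the same strand. It had 39 to 105 counts in young and 0 to 5 in old libraries, a difference in the opposite direction, beside 4683 to 7561 counts for Pgls. None of the 75-base windows of the longest Pgls transcript occurs in another gene's transcripts.

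Pgd encodes 6-phosphogluconate dehydrogenase, which makes the branch's other NADPH and its ribulose 5-phosphate (chromosome 4, 149149991 to 149166771, minus strand). It stood at 119, 108 and 70.8 CPM in young and 117, 96.4 and 108 CPM in old libraries. All 3 old libraries fell inside the young range, whose low end was young library 3. The log2 change was 0.11 ± 0.22 (SE, 95% interval -0.36 to 0.59; adjusted p = 0.781, edgeR). It turned to -0.31 with library totals and to -0.05 without young library 3, and was 0.59 after the length and GC correction (adjusted p = 0.0609, edgeR), with no call in any of these.

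Within the oxidative branch the 3 successive enzymes therefore did not move in step. The ratio of 2 genes' counts in a library does not depend on scaling. Pgls counts were 2.31, 1.27 and 1.92 times those of G6pdx in young libraries 1 to 3 and 6.08, 6.14 and 2.79 times in old libraries 1 to 3. Relative to Pgd, Pgls counts were 1.97 to 3.36 times as many in young and 3.42 to 5.28 times in old libraries. The ratio of G6pdx to Pgd, the 2 dehydrogenases, overlapped between the groups, at 0.96 to 1.75 in young and 0.69 to 1.23 in old libraries.

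**Figure D2:**
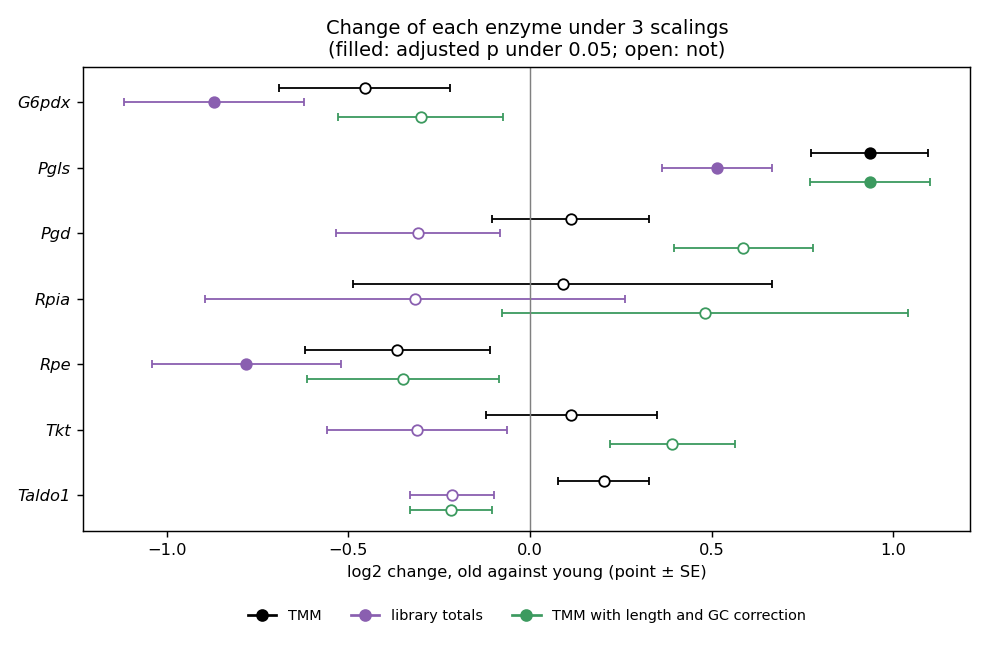
Log2 change of each enzyme in old against young libraries (horizontal axis, point ± SE) with TMM scaling, with library totals only, and with TMM and a length and GC correction. Filled points passed an adjusted p under 0.05: Pgls passed under all 3, while G6pdx (-0.87) and Rpe (-0.78) passed with library totals only.

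In the non-oxidative branch, Rpia encodes ribose 5-phosphate isomerase, which forms the sugar of nucleotides from ribulose 5-phosphate (chromosome 6, 70765720 to 70792232, minus strand). It had the fewest counts of the 7, with 69 to 224 per library. Its levels were 8.08, 6.88 and 9.91 CPM in young and 4.57, 7.68 and 14.2 CPM in old libraries, so the old libraries bracketed the young ones. The 3.11-fold range of the old libraries exceeds the counting error, an SD of 12% at the lowest count, 69, and 6.7% at the highest, 224. Its log2 change of 0.09 ± 0.58 (SE) has a 95% interval from -1.18 to 1.36, wide enough that a doubling in either direction would not have been detectable (adjusted p = 0.939, edgeR).

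Rpe encodes ribulose phosphate 3-epimerase, which makes xylulose 5-phosphate for transketolase (chromosome 1, 66700831 to 66719805, plus strand). It stood at 41.7, 41.8 and 35.9 CPM in young and 33.4, 25.5 and 33.8 CPM in old libraries. The old libraries lay below the young ones without overlap, by a small gap between 35.9 and 33.8 CPM. The log2 change was -0.37 ± 0.26 (SE, 95% interval -0.93 to 0.20) and did not pass (adjusted p = 0.376, edgeR). With library totals only it was -0.78 and passed (adjusted p = 0.0485). Of the 75-base windows of the longest Rpe transcript, 18.3% are also in transcripts of Kansl1l on the opposite strand, which had 30 to 78 counts beside 379 to 1028 for Rpe.

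Tkt encodes transketolase, which moves 2-carbon units between sugar phosphates (chromosome 14, 30548359 to 30574720, plus strand). Its young libraries lay far apart, at 194, 308 and 144 CPM, whereas the old libraries lay at 224, 232 and 244 CPM, inside the young range. The 2.14-fold distance between young libraries 2 and 3 was matched or exceeded by 2.4% of 3334 tested genes with a mean of at least 50 CPM. The 1.09-fold distance across the old libraries was matched or exceeded by 92.6% of them. Counting error was small beside this, with an SD of 1.9% at the lowest Tkt count, 2838. The log2 change was 0.11 ± 0.24 (SE, 95% interval -0.41 to 0.63; adjusted p = 0.799, edgeR). It moved to 0.48 without young library 2 and to -0.08 without young library 3, neither of them called.

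Taldo1 encodes transaldolase, which moves 3-carbon units and joins the pathway to glycolysis together with transketolase (chromosome 7, 141392199 to 141402968, plus strand). It was the steadiest of the 7 within a group, at 320.4, 325 and 347 CPM in young and 381, 396 and 365 CPM in old libraries. The old libraries lay above the young ones without overlap, but the log2 change of 0.20 ± 0.13 (SE, 95% interval -0.07 to 0.48) did not pass (adjusted p = 0.311, edgeR). Its direction depended on the scaling. With library totals the level was 373 to 390 CPM in young and 323 to 333 CPM in old libraries, a log2 change of -0.22, and after the length and GC correction the change was also -0.22. Taldo1 has the shortest longest transcript of the 7, 1362 bases, which puts it in the first of 5 equal classes of tested genes by length, whose median log2 change was 0.49. The other 6 enzymes lie in classes 2 and 3, with medians of 0.02 and -0.20.

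**Figure D3:**
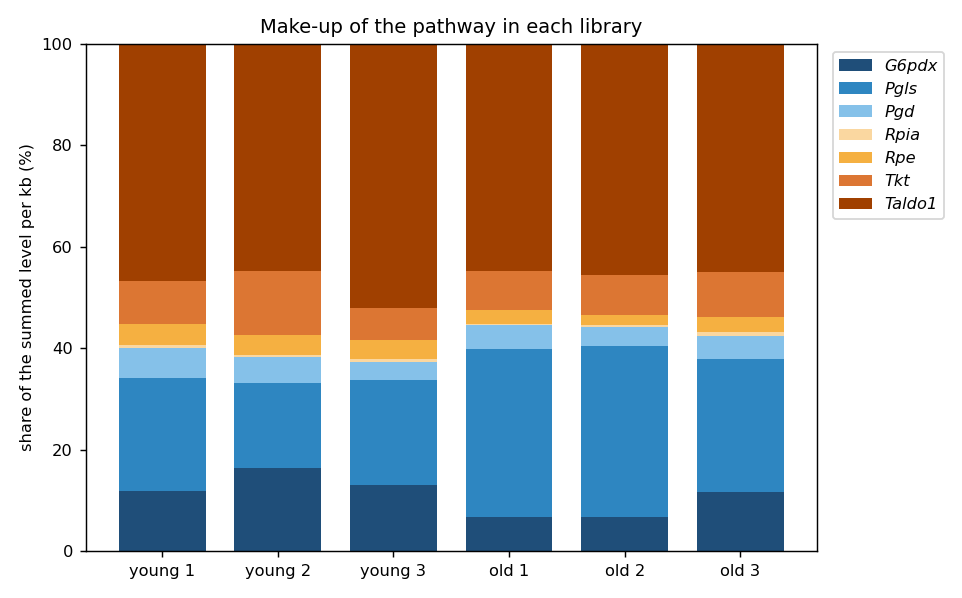
Share of each enzyme in the summed level of the 7 enzymes, per kilobase of merged exon length (vertical axis, percent), in each young and old library. The Pgls share is 16.9% to 22.4% in young and 26.4% to 33.7% in old libraries, while Taldo1 takes 44.8% to 52.0% in all 6.

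To compare enzymes with each other, levels were divided by the merged exon length. Taldo1 was highest, at 152 ± 6.53 CPM per kb in young and 175 ± 7.16 CPM per kb in old libraries (SD, n = 3 each). Pgls came next at 63.4 ± 7.01 and 121 ± 19.9 CPM per kb. G6pdx (44.0 ± 9.19 and 32.1 ± 9.60) and Tkt (29.3 ± 11.4 and 31.7 ± 1.33 CPM per kb) were not separated beyond their spread, and their order turned when the longest transcript was used as the length. Pgd at 15.4 ± 3.93 and Rpe at 12.8 ± 1.08 CPM per kb were not separated in young libraries, but in old libraries Pgd, at 14.9 to 18.2 CPM per kb, lay above Rpe at 8.20 to 10.9 CPM per kb. Rpia was lowest, at 1.55 ± 0.28 and 1.65 ± 0.92 CPM per kb. The rank order by mean was the same in both groups.

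As a share of the summed level per kb, the oxidative branch took 40.1%, 38.2% and 37.2% in young and 44.5%, 44.2% and 42.5% in old libraries, without overlap. Inside it the G6pdx share was lower in the old libraries (6.67% to 11.6%, against 11.8% to 16.3% in young) and the Pgls share higher. Rpe took 3.76% to 4.25% in young and 2.05% to 2.91% in old libraries. The Tkt and Pgd shares overlapped between the groups. Pgls was the only enzyme of the 7 with a higher mean share in old libraries, 31.1% against 19.9% in young. Because the shares in a library add up to a fixed whole, a higher Pgls share lowers the sum of the others. The summed counts of the 7 enzymes were 1089 to 1383 CPM of library totals in young and 1123 to 1162 CPM in old libraries, with overlap. With TMM they were 970 to 1171 and 1269 to 1350 CPM, without overlap.

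Enzymes at the pathway's edge and paralogs of its members were mostly low or not called. Of 10 listed, 8 were tested, 1 was called higher and 1 lower, with a median log2 change of 0.18, beside 11.2% higher and 8.14% lower over all tested genes, the background for each list that follows. H6pd, the endoplasmic reticulum enzyme that carries out the first oxidative steps there, was at 20.5 ± 7.47 and 21.5 ± 7.29 CPM (SD, n = 3 each), a log2 change of 0.07 ± 0.41 (SE) that did not pass. Tktl1, a transketolase-like gene, had 19, 22 and 32 counts in young and 0 in each old library, at least 17.5-fold lower in old against a floor of 3 counts over that group. Its call (adjusted p = 0.0353, edgeR) comes from a gene that passed the filter on low counts through the young libraries alone, so no support is drawn from it. It was lost with no filter (0.0894), in limma-voom (0.0828), with robust dispersion (0.0585), with the replicate number as a block (0.154) and without any 1 of the 6 libraries (0.0891 to 0.113). Tktl2 had 0 counts in all 6, which allows up to 0.0473 CPM in young and 0.0657 CPM in old libraries. Pgm2 rose by a log2 change of 1.31 ± 0.16 (SE). That symbol has been used for 2 phosphoglucomutase genes, on chromosomes 4 and 5, and which of them was counted is not given in the sources used here.

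**Figure D4:**
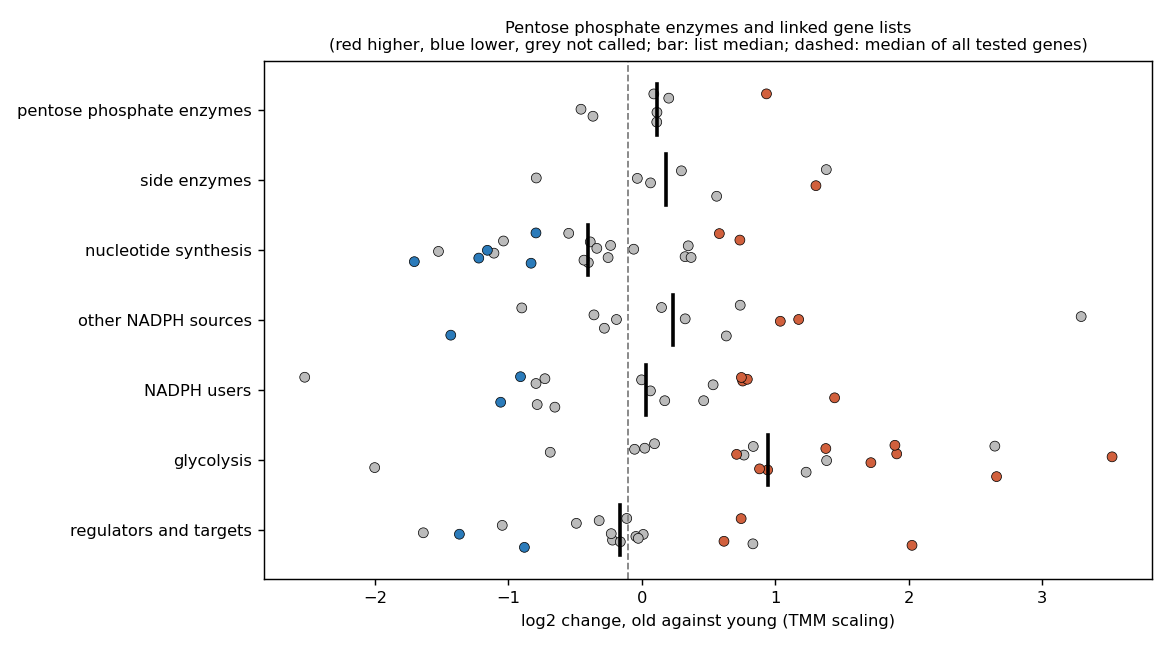
Log2 change in old against young libraries (horizontal axis, TMM scaling) of the tested genes of the pathway and of 6 linked lists, with each list's median as a bar. Glycolysis has a median of 0.94 with 9 genes higher and 0 lower, the pentose phosphate enzymes a median of 0.11 with Pgls called, and Tktl1 (0 counts in old libraries) is not drawn.

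Glycolytic enzymes, which share glucose 6-phosphate, fructose 6-phosphate and glyceraldehyde 3-phosphate with the pathway, had calls in 1 direction. Of 19 tested, 9 rose and 0 fell, beside 11.2% and 8.14% of all tested genes, with a median log2 change of 0.94. At an unadjusted p under 0.05 (edgeR) there were 13, beside 3720 of the 11805 tested genes. No test compared the list with the pathway or with other genes. Tpi1, the triose phosphate isomerase, rose from 569 to 590 CPM in young to 3086 to 4338 CPM in old libraries. Aldoa, Gapdh and Pgk1 rose by 1.72 ± 0.13, 1.91 ± 0.15 and 1.90 ± 0.16 on the log2 scale (SE). Tpi1, Aldoa, Gapdh and Pgk1 were called in each of the 16 alternatives. The counts of Tpi1, which supplies the glyceraldehyde 3-phosphate that transketolase and transaldolase exchange, were 3.01, 1.91 and 3.94 times those of Tkt in young and 16.0, 18.7 and 12.7 times in old libraries. With library totals the list had 8 genes higher and 1 lower, beside 6.08% and 20.2% of all tested genes. With the replicate number as a block it had 10 and 1, beside 1208 and 800 among all tested genes. With DESeq2 it had 12 and 1, for which no background is given here.

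Nucleotide synthesis, the user of ribose 5-phosphate, had calls in both directions. Of 21 tested, 2 rose and 5 fell, beside 11.2% and 8.14% of all tested genes, with a median log2 change of -0.40. Scaled by library totals only, 0 were higher and 12 lower, beside 6.08% and 20.2% of all tested genes. Cad, which starts pyrimidine synthesis, fell from 85.8 to 109.6 CPM in young to 23.9 to 35.7 CPM in old libraries. Adsl, a purine synthesis enzyme, fell from 128 ± 21.1 to 57.6 ± 11.4 CPM (SD, n = 3 each), and both were called in all 16 alternatives. Gart, another purine enzyme, fell by 1.22 on the log2 scale, and its call was lost without young library 1 or 2 or old library 1 or 2 (adjusted p up to 0.0859). Atic and Rrm1 also fell, by 0.79 and 0.83. The call of Atic was lost without any library other than old 2 (up to 0.123) and that of Rrm1 without young library 1 or 3 or old library 1 (up to 0.0903). After the length and GC correction neither was called (log2 changes of -0.53 and -0.33). Hprt, which salvages purine bases with activated ribose, rose from 289.8 ± 37.5 to 482 ± 25.7 CPM, but not with library totals (log2 change of 0.32, adjusted p = 0.098) or the length and GC correction (0.19, adjusted p = 0.408). Impdh1 rose by 0.58, a call lost without young library 1 or 3 or any old library (up to 0.108). The 2 synthetases that activate ribose 5-phosphate, Prps1 and Prps2, did not pass, with log2 changes of 0.32 and -1.52.

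Of 12 tested genes listed for other sources of NADPH or for making NADP, 2 rose and 1 fell, with a median log2 change of 0.24. The number called is near the background of 19.4%. With library totals 1 was higher and 4 lower, beside 6.08% and 20.2% of all tested genes. Me2, a mitochondrial malic enzyme, was at 86.7 ± 9.40 CPM in young and 178 ± 14.7 CPM in old libraries (SD, n = 3 each), a rise called in all 16 alternatives. Whether this enzyme made NADPH in these cells was not measured. Nadk2, the mitochondrial kinase that makes NADP from NAD, rose by 1.18 on the log2 scale, a call lost without young library 1 or 2 or old library 2 (adjusted p up to 0.0913) and with library totals (0.0962). Mthfd1, a folate enzyme that makes NADPH in the cytosol, fell by 1.43, a call lost without young library 1 or 2 (up to 0.0713). The cytosolic enzymes Me1 and Idh1 did not pass, with log2 changes of 0.33 and 0.74.

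Of 16 tested users of NADPH, 4 rose and 2 fell, beside 11.2% and 8.14% of all tested genes, with a median log2 change of 0.03. Gsr, which recycles glutathione, rose from 132 ± 34.4 to 223 ± 23.6 CPM (SD, n = 3 each), a call lost without old library 2 or 3 (adjusted p up to 0.0763) and with library totals (0.282). Txnrd1, which recycles thioredoxin, fell from 138 ± 32.1 to 66.4 ± 12.8 CPM and was called in all 16 alternatives, as was the biliverdin reductase Blvrb, which rose by 1.45 on the log2 scale. Cyba, a subunit of the superoxide-making oxidase, rose by 0.75, but its log2 change was -0.08 after the length and GC correction. The oxidase's catalytic subunit gene Cybb had 0 counts in 4 libraries and 5 and 37 in the others. With library totals as the only scaling the counts turned to 1 higher and 6 lower, beside 6.08% and 20.2% of all tested genes.

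Genes known to regulate the pathway were listed with some targets of the same regulators. Of 17 tested, 3 rose and 2 fell, beside 11.2% and 8.14% of all tested genes, with a median log2 change of -0.16. Scaled by library totals only, 1 was higher and 5 lower, beside 6.08% and 20.2% of all tested genes. Nfe2l2 (NRF2) was at 27.0 ± 7.95 and 21.7 ± 4.02 CPM (SD, n = 3 each), a log2 change of -0.32 ± 0.34 (SE) that did not pass. Maff, a small partner of NRF2, rose from 5.83 ± 1.80 to 23.8 ± 6.93 CPM and was called in all 16 alternatives. Mafg rose by 0.74, a call lost without any library other than old 3 (adjusted p up to 0.120) and with library totals (0.330). The NRF2 target Gclc, of glutathione synthesis, fell from 76.8 ± 19.1 to 29.8 ± 10.7 CPM and was called in all 16. Hif1a rose from 141 ± 10.2 to 216 ± 38.5 CPM, a call lost without young library 1 or 2 or old library 1 or 2 (up to 0.125), with library totals (0.406) and with the replicate number as a block (0.055). Mlxip, a glucose-sensing factor, fell by 0.88, a call lost without any library other than young 3 (up to 0.148), with the replicate block (0.0582) and after the length and GC correction (0.657). Myc, at 205 to 308 CPM in young and 132 to 200.4 CPM in old libraries, did not pass (log2 change of -0.49, adjusted p = 0.131, edgeR) but was called lower with library totals (-0.92, adjusted p = 0.0108). Srebf1 stood at 70.4 and 70.9 CPM.

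Genes whose levels ran most like those of G6pdx and Tkt over the 6 libraries were found by the mean absolute difference in centred log2 CPM. Nearest to Tkt were Csnk1g2 (0.08 log2 units), Hk2 (0.09), the hexokinase that makes glucose 6-phosphate, and Srebf2 (0.10), an activator of sterol synthesis. Hk2 stood at 66.4, 99.1 and 52.4 CPM in young and 77.6, 69.0 and 74.8 CPM in old libraries. Like Tkt, it was highest in young library 2 and lowest in young library 3, with the old libraries between them. Nearest to G6pdx were D19Bwg1357e (0.05), Wdr77 (0.07) and Arhgap30 (0.08). Genes chosen for running like G6pdx and Tkt share their differences between the ages by that choice. With library totals Wdr77 (-0.80, adjusted p = 0.0329, edgeR) and Arhgap30 (-0.95, adjusted p = 0.0162) were called lower. D19Bwg1357e (-0.85, adjusted p = 0.0636) was not called. Of all tested genes 20.2% were called lower there, and because of the choice these calls lend no support to that of G6pdx.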

How the data were processed

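The authors deposited raw counts, whole numbers per gene symbol, in 1 column for each of 6 libraries, matched to samples by description and title. The submitters' processing notes name the build mm10, DESeq2 1.1, Cufflinks 2.0 and STAR 2.5.3a. What counted the reads, on which annotation and strand, was not given, so reads of overlapping genes may be shared. Old and young counts were compared with edgeR 4.0.16 under R 4.3.3 (filterByExpr, minimum count 10 and total 15, leaving 11805 genes, 48.3%; TMM; glmQLFit and glmQLFTest, old against young, Benjamini-Hochberg over all tested genes). The SE is the log2 change divided by the root of F, and 95% intervals use the fit's degrees of freedom. Positions and lengths are from GENCODE vM21 (GRCm38, the assembly of mm10), which matched 98.4% of symbols, and promoters from RefSeq GRCm38.p6. Ratios, shares and levels per length are descriptions without a test.

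The alternatives were DESeq2 1.42.0, limma-voom (limma 3.58.1), 3 scalings, 2 filters, robust dispersion, the replicate number as a block, a length and GC correction, and leaving out each library. On counts simulated for old against young (11435 genes tested), the test recovered 19.2% of 2-fold changes and 59.4% of 4-fold changes. Of the calls made there, 2.5% were false. Far fewer genes were changed in the simulation than were called in the data, so these rates need not hold for the data. Members and lists were chosen with earlier results of these data known. Named genes are the 7 enzymes, up to 4 called members of each list by smallest p (2 where none were), the paralogs G6pd2, H6pd, Tktl1 and Tktl2, the regulators Nfe2l2, Myc, Hif1a and Srebf1, and the 3 genes nearest to G6pdx and to Tkt. Atic, Rrm1, Impdh1, Gsr, Mlxip, Prps1, Prps2, Me1, Idh1 and Cybb were named after their values were seen. Some genes that these rules name are not reported here. Between replicates of each age, counts differed beyond sampling noise (chi-square per degree of freedom 35.7 to 89.2).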

Additional observations from a re-analysis of the deposited data

How the results depend on the processing

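Of 112 values of the 7 enzymes under 16 alternatives, 99 kept their direction and side of the threshold, 2 gained a call and 11 turned sign without a call. With library totals only, 3 enzymes were called in place of 1, beside 26.2% of all tested genes, and G6pdx (-0.87) and Rpe (-0.78) passed as lower. The log2 changes of Pgd (-0.31), Rpia (-0.32), Tkt (-0.31) and Taldo1 (-0.22) turned negative there, as did those of Csnk1g2 (-0.31), Hk2 (-0.40), Srebf1 (-0.41) and H6pd (-0.36). With the length and GC correction Taldo1 (-0.22), Wdr77 (0.089), Arhgap30 (0.015), Srebf2 (0.43) and Cyba (-0.084) turned sign, and Hk2 was called (0.65). In limma-voom Rpia (-0.016), Srebf2 (0.0062) and Srebf1 (-0.0075) turned, and with upper quartile scaling Srebf2 (0.0004). The cause of these changes was not tested.

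Leaving out 1 library gave 1314 (without young library 1) to 2141 calls over all genes, against 2286, with 1515 without young library 2. Log2 changes ran from -0.73 to -0.26 for G6pdx, -0.050 to 0.29 for Pgd, -0.44 to 0.40 for Rpia, -0.075 to 0.48 for Tkt, -0.091 to 0.44 for Csnk1g2, -0.18 to 0.32 for H6pd, -0.13 to 0.33 for Hk2, -0.12 to 0.15 for Srebf1 and -0.26 to 0.28 for Srebf2, none of them called. Same-numbered libraries of the 2 groups did not deviate together (correlations of 0.020, 0.009 and 0.041), and young library 2 did not correlate best with its own number. With the replicate number as a block, 2008 genes were called, Pgls kept its call (0.93, adjusted p = 0.00742, edgeR), and Rpia (-0.041) and Srebf2 (0.028) turned sign. For Rpia the spread between libraries was wider than the counting error.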
